A study of Arabidopsis thaliana with 18 samples.

Results

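The response to blue light in seedlings of Arabidopsis thaliana that lack cryptochrome 2 was read from 6 of the 18 libraries of the series: cry2_blue 1-3 and cry2_dark 1-3. All plants were 4 days old and grown on Murashige and Skoog medium, and the label gives whole seedlings as the tissue. The cry2_dark seedlings carried the cry2-1 allele and stayed in continuous darkness. The cry2_blue seedlings carried the same allele and were moved from darkness into blue light for 30 min, at 30 µmol of photons per m2 and second. Col-0 wild type under the same conditions (WT_dark 1-3 and WT_blue 1-3) and a further set of dark Col-0 libraries (WT_dark 4-6) are used below for comparison. The dark libraries of the mutant titled flΔ4 (fl4_dark 1-3) are used in a single comparison. Members were all loci whose TPM averaged 1 or more across cry2 and wild type in both conditions, which left 19985 of 32833 loci. TPM is the length-scaled share of a gene in its library. Changes are differences of log2(TPM + 1) between the means of 3 and 3 libraries with the standard error (SE) of a limma fit. A gene was called where its Benjamini-Hochberg adjusted p over all 19985 loci was under 0.05. The added 1 makes the fold changes of genes near 0 TPM too small. No label says that replicates came from separate cultures, so the p-values measure only the spread between these libraries. The depth of each library is unknown, because TPM hold no read totals.

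The mutant was checked first at its own gene. CRY2 (AT1G04400, chromosome 1) was listed at 0 in the 3 dark libraries and at 0.03, 0.06 and 0.03 TPM in blue. The neighbouring AT1G04410, a malate dehydrogenase gene, was listed at 0 in the dark and at 0.19, 0.22 and 0.20 TPM in blue. AT1G04420, an oxidoreductase gene, was listed at 0 in the dark and at 0.06, 0.03 and 0.08 TPM in blue. All 3 genes were expressed in wild type, so the missing neighbours and the missing receptor cannot be told apart in this line.

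Plants sense blue light with cryptochromes, phototropins and the LOV-domain F-box proteins, and phytochromes also absorb some of it. Active cryptochromes hold back the COP1/SPA ubiquitin ligase, which in darkness removes HY5 and related activators of light-regulated genes. Light also lowers the activity of the PIF transcription factors, which in darkness drive hypocotyl growth and hold back greening. In cry2-1 plants the closely related cryptochrome 1 and the other receptors are still encoded.

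The promoters of 6 genes that results below turn on are shown here, because they hold the core motifs through which HY5 and the PIF proteins are known to bind. They are the 250 bases before the gene start, read 5′ to 3′ on the strand of the gene from RefSeq's TAIR10.1 assembly. In the first 4, whose genes were higher in blue, capitals mark the G-box CACGTG. In the last 2, whose genes were lower in blue, capitals mark the PBE-box CACATG or its reverse complement CATGTG. The 6 were picked after the values were seen, as genes with such motifs.
PRR9: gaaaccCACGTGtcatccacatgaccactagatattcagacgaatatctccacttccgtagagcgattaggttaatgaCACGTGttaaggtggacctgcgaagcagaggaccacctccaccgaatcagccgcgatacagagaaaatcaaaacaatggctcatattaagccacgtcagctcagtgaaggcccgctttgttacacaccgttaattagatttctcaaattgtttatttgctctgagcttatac
CCA1: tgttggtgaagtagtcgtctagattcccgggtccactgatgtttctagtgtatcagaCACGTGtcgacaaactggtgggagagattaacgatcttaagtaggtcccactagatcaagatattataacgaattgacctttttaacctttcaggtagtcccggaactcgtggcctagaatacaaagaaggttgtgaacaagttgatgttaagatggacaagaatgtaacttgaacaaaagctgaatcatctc
LNK3: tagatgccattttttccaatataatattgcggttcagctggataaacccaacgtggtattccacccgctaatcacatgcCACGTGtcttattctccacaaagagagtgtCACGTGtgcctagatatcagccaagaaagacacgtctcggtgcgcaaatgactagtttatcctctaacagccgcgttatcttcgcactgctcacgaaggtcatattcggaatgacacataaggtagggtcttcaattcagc
BBX30: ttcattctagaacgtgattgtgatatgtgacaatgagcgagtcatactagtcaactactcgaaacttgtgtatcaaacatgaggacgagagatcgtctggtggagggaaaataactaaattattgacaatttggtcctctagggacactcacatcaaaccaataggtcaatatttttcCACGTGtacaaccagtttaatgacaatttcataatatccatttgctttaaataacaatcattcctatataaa
SAUR13: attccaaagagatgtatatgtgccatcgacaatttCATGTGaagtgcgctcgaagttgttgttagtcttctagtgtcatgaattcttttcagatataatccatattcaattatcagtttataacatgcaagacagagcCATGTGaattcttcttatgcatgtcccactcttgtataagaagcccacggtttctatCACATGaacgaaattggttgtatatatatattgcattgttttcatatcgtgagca
SAUR19: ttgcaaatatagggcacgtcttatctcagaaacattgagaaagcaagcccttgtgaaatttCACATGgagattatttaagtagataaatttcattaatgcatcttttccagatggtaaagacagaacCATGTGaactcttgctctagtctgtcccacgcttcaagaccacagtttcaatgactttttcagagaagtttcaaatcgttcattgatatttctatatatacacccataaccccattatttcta
The PRR9 promoter held the G-box at 244 and 172 bases before the gene start, LNK3 at 171 and 141, CCA1 at 193 and BBX30 at 72. SAUR13 held the PBE-box at 215, 112 and 55 bases and SAUR19 at 189 and 123. The promoters of PRR9 and LNK3 also held 1 PBE-box each, left in lower case, at 233 and 178 bases.

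Over all 18913 protein-coding promoters of tested genes, the G-box, searched on both strands, was present in 7.28%. It was present in 186 of 1770 promoters (10.5%) of genes called and at least 2-fold higher in blue, and in 91 of 1523 (5.98%) of those called and at least 2-fold lower. At 4-fold the shares were 12.7% and 3.76%. The PBE-box CACATG, on both strands, was present in 11.1% of all promoters, 11.2% of the higher and 17.1% of the lower genes. At 4-fold its shares were 13.1% of the higher and 18.4% of the lower genes. Site II (TGGGCC, both strands), an element common in promoters of genes for ribosomes and cell proliferation, was present in 16.7% of all, 13.6% of the higher and 7.16% of the lower promoters. The I-box GATAAG, known from promoters of photosynthesis genes, was found in 12.6%, 15.1% and 12.4% of these sets. Any pair of these 4 motifs shared letters in at most 18 of the 18913 promoters, and a match describes the letters of this window alone. The higher and lower sets rest on cry2_blue against cry2_dark alone, and motif shares were not counted against WT_dark 4-6.

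Most tested loci differed between blue light and darkness. In cry2, 11180 loci (55.9% of those tested) were called, 5149 higher in blue (25.8%) and 6031 lower (30.2%). At least 2-fold changes were found in 3641 loci (18.2%), of which 1987 were higher (9.94%) and 1654 lower (8.28%). Changes of at least 4-fold were called in 526 higher and 338 lower loci. The median over all tested loci was -0.05 on the log2 scale, with quartiles at -0.48 and 0.44. The libraries of the 2 conditions did not overlap in TPM at 12876 loci (64.4%).

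The dark and blue libraries of cry2 also differ in more than their label. In the file headers the dark libraries are named Db1-3 and the blue ones M4-6, and no dark library shares the second prefix. No label says what the prefixes stand for, so within cry2 the light and the prefix cannot be told apart. Further dark libraries, WT_dark 4-6 and fl4_dark 1-3, bear the prefix D. WT_dark 4-6, named D4-6, had no blue light, yet of the 1987 loci at least 2-fold higher in blue, their mean lay nearer to cry2_blue than to cry2_dark at 1047 (52.7%). Among the 1654 lower loci this was so at 1290 (78.0%). Over all 19985 tested loci, uncalled ones included, the share was 61.9%, so the higher loci lay below it and the lower loci above it. At many uncalled loci cry2_dark and cry2_blue lie close together, so nearness to either says little there. This limits the share over all loci as a reference. For WT_dark 1-3, named Da1-3, the counts were 50 (2.52%) and 86 (5.20%), against 23.9% of all tested loci. For fl4_dark 1-3, of another genotype and also without blue light, they were 1091 (54.9%) and 1442 (87.2%), against 66.5% of all tested loci. Set against WT_dark 4-6, cry2_blue differed at 3330 of 19888 loci (16.7%), 1912 higher (9.61%) and 1418 lower (7.13%). The share of higher calls was then 57.4%, against 46.1% with cry2_dark as the reference. That comparison was added after the values were seen, and its groups differ in genotype and header prefix (M4-6 and D4-6) as well as light. The counts against WT_dark 4-6 stand in brackets or beside each gene group below, and the part of library series in any of them was not tested. At some genes WT_dark 4, 5 and 6 were far apart. LHCA1, a light-harvesting gene, was at 338, 517 and 716 TPM in them, and BBX24, a B-box gene, at 50.7, 112 and 197 TPM. At PHYE, a phytochrome gene, they were close, at 58.5, 45.6 and 57.5 TPM. How far such spread lowered the counts was not tested. List counts below stand against shares over all tested loci of 25.8% higher and 30.2% lower. With WT_dark 4-6 as the reference these shares were 9.61% and 7.13%.

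**Figure D1:**
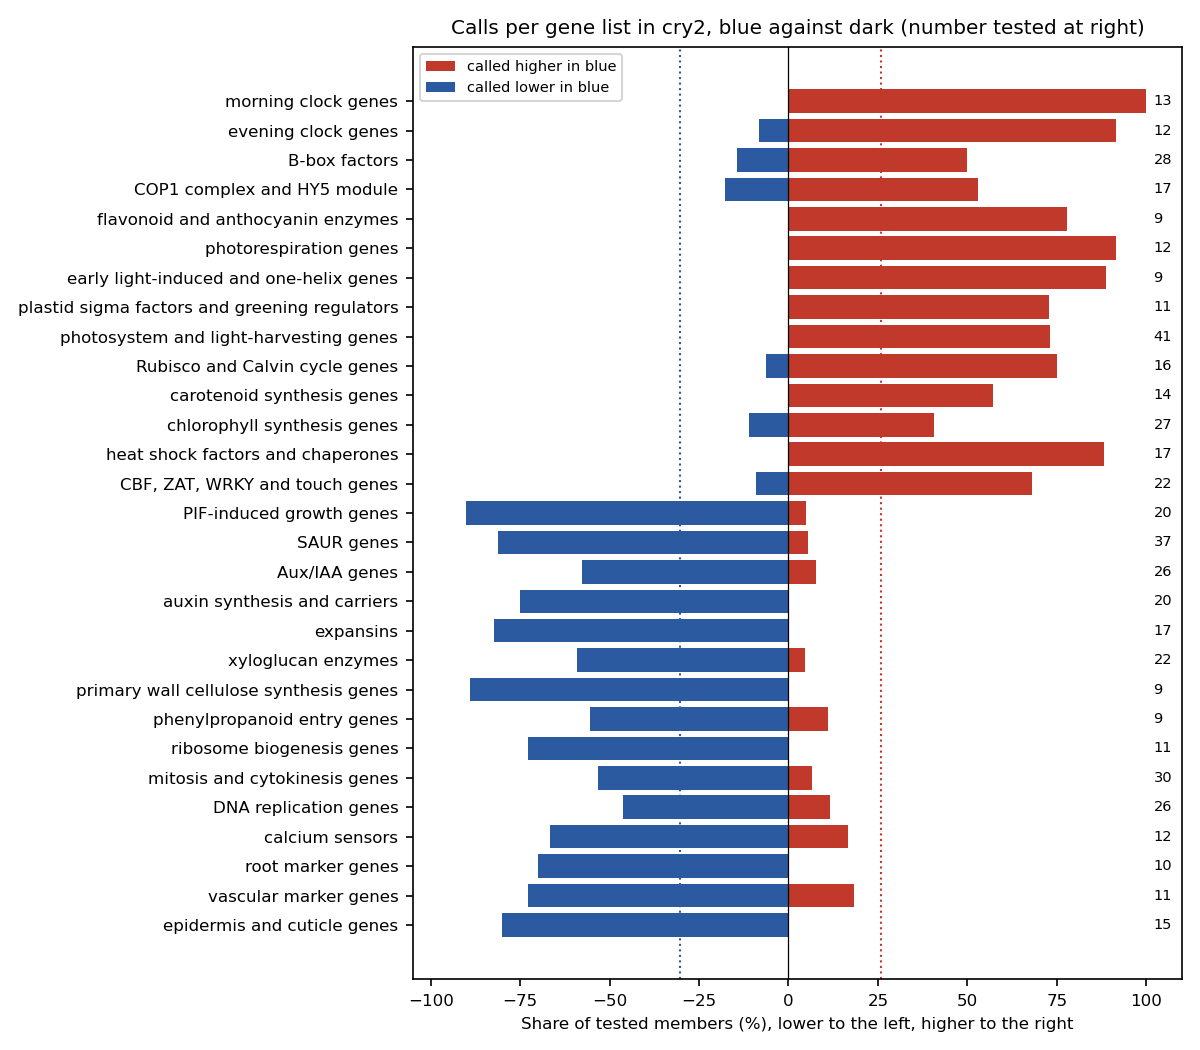
Share of tested members of the gene lists called higher (red, right) or lower (blue, left) in cry2 after blue light, in percent, with the number tested at the right edge. Dotted lines mark the shares over all tested loci, 25.8% higher and 30.2% lower; all 13 morning clock genes were higher and 18 of 20 PIF-induced growth genes were lower.

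**Figure D2:**
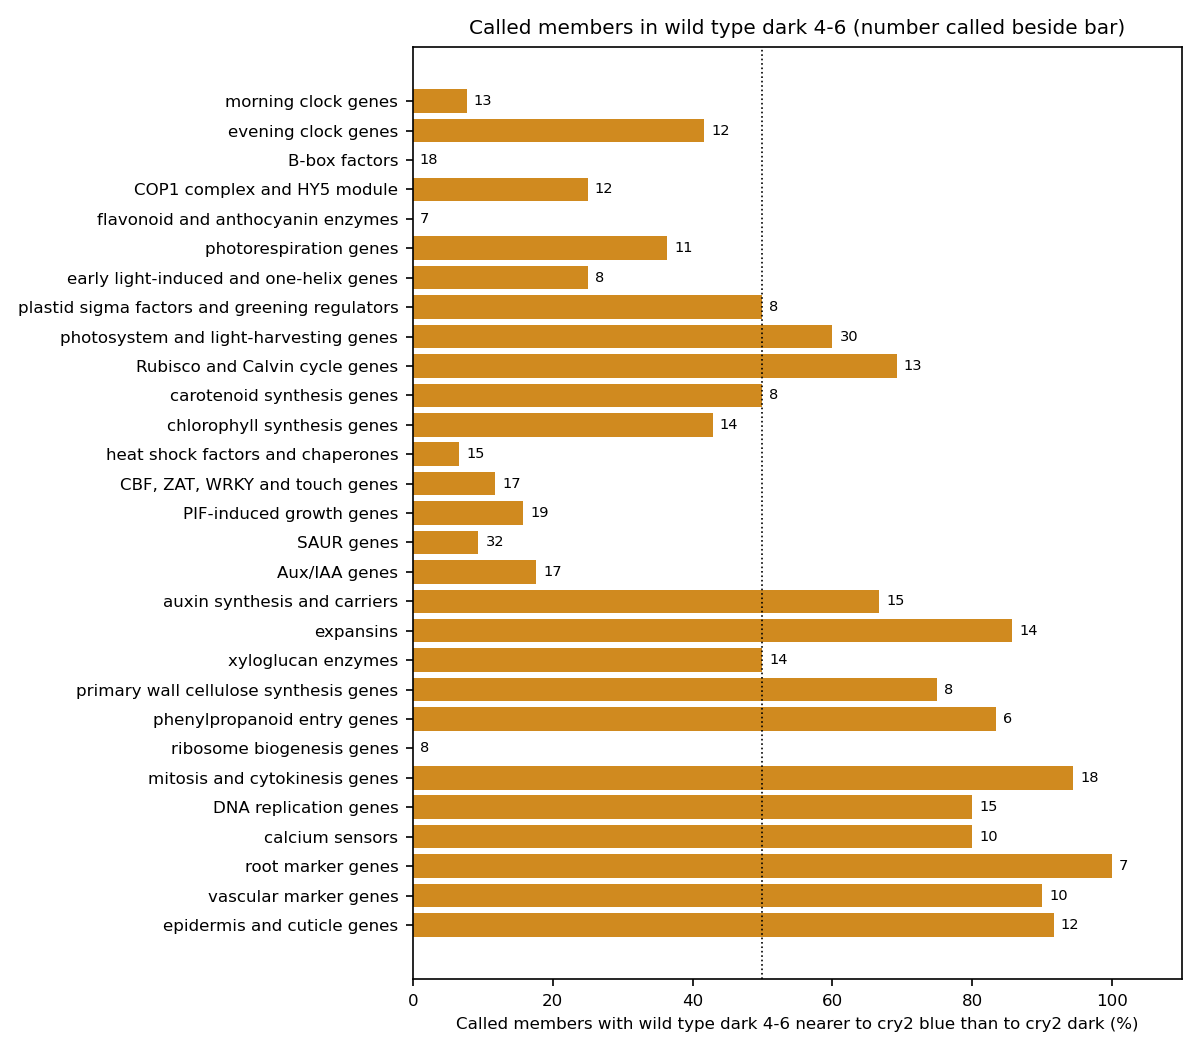
Share, in percent, of the called members of each list whose mean level in WT_dark 4-6 lay nearer to cry2_blue than to cry2_dark, with the number of called members beside each bar. The dotted line marks 50%. Over all tested loci, called or not, the share was 61.9%. Clock, B-box, heat shock and SAUR lists lie to the left of the line, and root, vascular, mitosis and epidermis lists to the right, above 61.9%.

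Among the receptors themselves, the transcripts of CRY3, PHOT2 and PHYE rose and those of PHOT1 and PHYA fell. Of 13 photoreceptor genes, 5 were higher and 2 lower (2 and 2 against WT_dark 4-6). CRY1 (AT4G08920), the remaining cryptochrome of the nucleus and cytosol, was at 43.6, 49.3 and 46.5 TPM in the dark and at 67.0, 76.6 and 59.3 TPM in blue. The lowest blue library was above the highest cry2_dark one, and the change was 0.53 ± 0.13 (adjusted p = 0.00472). WT_dark 4-6 held CRY1 at 48.5 to 64.3 TPM, which overlaps the blue libraries. CRY3 (AT5G24850), a cryptochrome of the organelles with DNA repair activity, went from 10.3, 11.3 and 11 TPM to 94.1, 108 and 86.3 TPM, without overlap (3.03 ± 0.18). PHOT2 (AT5G58140), the phototropin that mediates chloroplast avoidance in strong light, went from 16.9, 19.3 and 21.8 TPM to 84.6, 92.1 and 63.3 TPM (1.99 ± 0.33). PHOT1 (AT3G45780), the phototropin for low fluence rates, moved the opposite way, from 137, 167 and 165 TPM to 36.5, 40.8 and 29.7 TPM (-2.11 ± 0.20). Both phototropins were therefore separated between the conditions in every library.

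PHYA (AT1G09570), the phytochrome that accumulates in darkness, fell from 265, 329.9 and 292 TPM to 127, 138 and 113 TPM (-1.22 ± 0.11). PHYE (AT4G18130), a light-stable phytochrome, was at 4.52, 5.26 and 5.62 TPM in the dark and at 74.3, 62.8 and 55.2 TPM in blue (3.40 ± 0.13). WT_dark 4-6, without any light, held PHYE at 45.6 to 58.5 TPM, which overlaps the blue libraries. PHYB was at 26.4, 32.9 and 35.5 TPM in the dark and 31.1, 32.4 and 25.2 TPM in blue, and its change of -0.09 ± 0.15 did not pass the test. Among the 7 partners of cryptochromes and phototropins that could be matched, 3 rose and 3 fell (2 and 2 against WT_dark 4-6). RPT2 (AT2G30520), which works with phototropins in phototropism, rose from 113, 130.0 and 131 TPM to 418, 475 and 477 TPM (1.87 ± 0.10). PKS1, a substrate of phytochrome in the same response, rose by 1.36 ± 0.11 while its relative PKS4 fell by 1.32 ± 0.11. NPH3, the other phototropism scaffold, changed by -0.22 ± 0.15 and did not pass.

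The HY5 module rose without CRY2. Of 17 genes of the COP1 complex and the HY5 module, 9 were higher and 3 lower, with a median of 0.54 (7 and 2 against WT_dark 4-6). HY5 (AT5G11260), the bZIP activator of light-regulated genes, was at 50.4, 49.3 and 51.6 TPM in the dark and at 336, 310.5 and 333 TPM in blue. The groups were far apart and the change was 2.67 ± 0.08 (adjusted p = 1.88e-10), with 103 to 138 TPM in WT_dark 4-6. HYH (AT3G17609), its homologue, rose from 68.0, 60.6 and 69.6 TPM to 381, 403 and 381 TPM (2.54 ± 0.14). RUP1 and RUP2, WD40 proteins that return the UV-B receptor to its inactive form, rose by 3.48 ± 0.18 and 3.45 ± 0.23. RUP1 was at 7.45, 8.02 and 7.61 TPM in the dark and 89.6, 111 and 88.6 TPM in blue, and at 6.82 to 17.3 TPM in WT_dark 4-6. SPA1 and SPA3, partners of COP1, rose by 2.00 ± 0.13 and 2.82 ± 0.23, while SPA2 fell by 0.75 ± 0.27. FHY1, which carries phytochrome A into the nucleus, fell by 0.99 ± 0.12, and its level in WT_dark 4-6 (86.2 to 99.7 TPM) was above all dark cry2 libraries.

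B-box zinc finger proteins act with HY5 as activators or repressors of photomorphogenesis, and several of their transcripts were all but absent before light. Of 28 tested B-box genes, 14 rose and 4 fell (14 and 5 against WT_dark 4-6), and 3 of the 31 matched genes were below the TPM minimum. BBX32 (AT3G21150), a repressor of HY5 action, was at 0.32, 0.18 and 0.14 TPM in the dark and at 145, 161 and 139 TPM in blue (6.94 ± 0.15). BBX30 (AT4G15248), a microprotein whose promoter is printed above, was listed at 0 in all 3 dark libraries and at 24.8, 31.4 and 35.9 TPM in blue. In WT_dark 4-6 these genes were at no more than 0.98 and 1.96 TPM, so every library of cry2_dark and WT_dark 4-6 was below every blue one. BBX24, another repressor, rose from 64.8, 64.7 and 66.2 TPM to 406, 461 and 462 TPM (2.74 ± 0.10). BBX29 rose by 3.69 ± 0.20 and BBX2, a relative of CONSTANS, by 3.20 ± 0.13.

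The B-box genes that fell include activators of photomorphogenesis. BBX23 (AT4G10240), which acts with HY5 in light responses, was at 68.0, 70.5 and 70.6 TPM in the dark and at 9.31, 5.62 and 5.74 TPM in blue (-3.20 ± 0.15). WT_dark 4-6 had 72.3 to 90.1 TPM, at or above the dark level. BBX20 and BBX21, activators in the same branch, fell by 1.73 ± 0.23 and 0.85 ± 0.09.

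**Figure D3:**
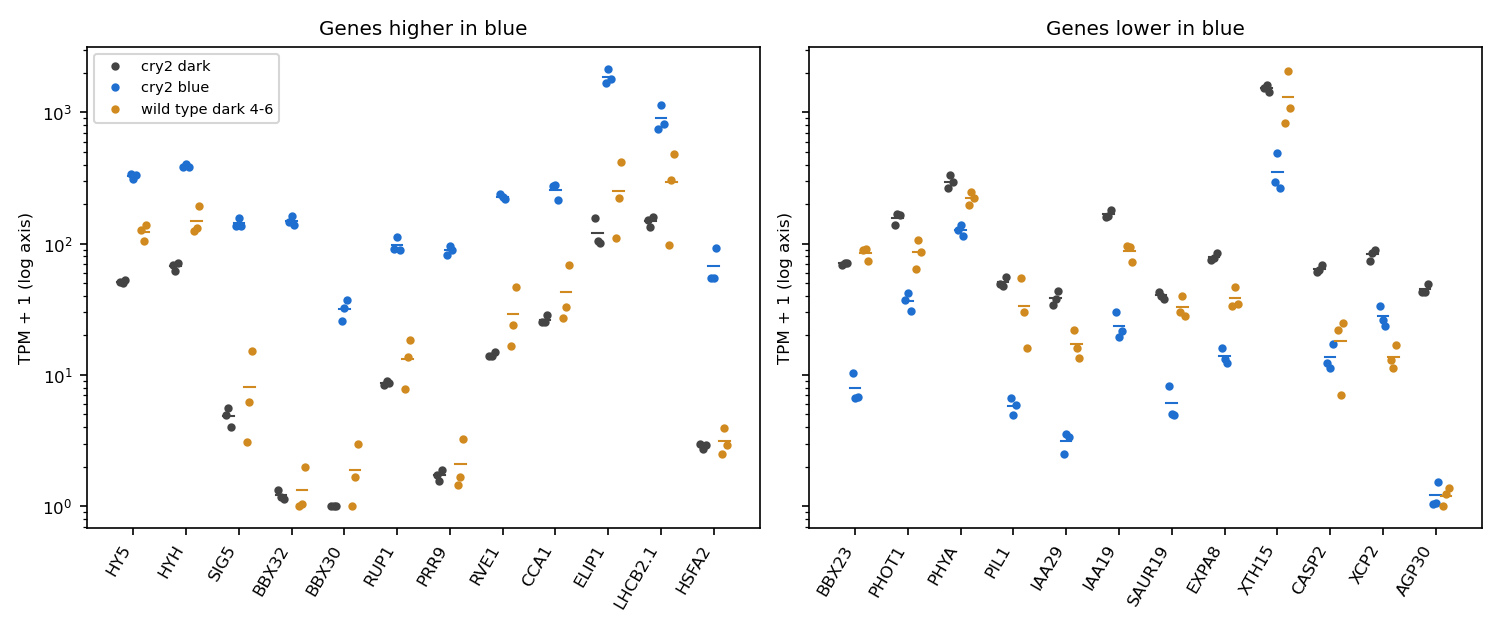
TPM + 1 in each library on a log axis for 12 genes higher (left) and 12 genes lower (right) in cry2 after blue light; points are single libraries and bars group means of cry2_dark, cry2_blue and WT_dark 4-6. HY5 lies between 49.3 and 51.6 TPM without light and between 310.5 and 336 TPM with it, and WT_dark 4-6 lies near the dark points for BBX32 and near the blue points for AGP30.

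Of 6 PIF genes, 4 rose and none fell (2 rose and 1 fell against WT_dark 4-6). Those that rose in cry2 included PIF7 (0.49, 0.28 and 0.26 TPM in the dark, 3.82, 6.10 and 6.07 TPM in blue) and PIF5 (1.94 ± 0.18). PIF1 and PIF3, the main repressors of greening in the dark, changed by 0.13 and 0.19 and did not pass. Of 20 tested growth genes known to be induced by PIFs, 18 fell and 1 rose, with a median of -1.94 (14 and 1 against WT_dark 4-6). PIL1 (AT2G46970), a bHLH gene used as a marker of PIF activity, fell from 47.9, 46.5 and 54.5 TPM to 5.65, 3.96 and 4.91 TPM (-3.12 ± 0.17). ATHB2, a homeobox gene of shade avoidance, fell by 2.35 ± 0.14, and CKX5, a cytokinin oxidase, by 2.43 ± 0.13. BEE1, a brassinosteroid-responsive bHLH gene, was the only riser, at 0.34 ± 0.13.

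The circadian clock genes of the morning rose together. All 13 tested morning genes were higher in blue, with a median of 3.06 (12 against WT_dark 4-6). On the list headed evening genes, 11 of 12 were higher and 1 lower, with a median of 1.26 (6 and 1 against WT_dark 4-6). That list also holds the DOF genes CDF1, CDF2 and CDF3, and the phase of a gene was not measured here. CCA1 (AT2G46830), one of the MYB repressors at the core of the clock, was at 24.4, 24.2 and 27.6 TPM in the dark and at 276, 279 and 214 TPM in blue (3.28 ± 0.12, adjusted p = 4.57e-10). PRR9 (AT2G46790), the first of the pseudo-response regulators to peak after dawn, went from 0.73, 0.56 and 0.88 TPM to 81.5, 94.3 and 89.1 TPM (5.70 ± 0.20). The PRR9 values of the 2 conditions were far apart, and WT_dark 4-6 had 0.44 to 2.24 TPM. RVE1 (AT5G17300), which links the clock to auxin synthesis, rose from 13.0, 13.0 and 14.0 TPM to 239, 225 and 219 TPM (4.00 ± 0.13). RVE7, LNK3 and LNK4, further morning genes, rose by 3.68 ± 0.12, 3.07 ± 0.10 and 2.84 ± 0.10.

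On the list headed evening genes, GI (AT1G22770), which stabilises the blue-light receptor ZTL, rose from 6.21, 8.40 and 7.78 TPM to 37.3, 38.1 and 35.6 TPM (2.18 ± 0.11). CDF3, a DOF repressor in the flowering pathway, rose by 2.45 ± 0.11, PRR5 by 2.33 ± 0.20 and ELF4, of the evening complex, by 1.68 ± 0.12. TCP21, also called CHE, a regulator of CCA1, fell by 0.67 ± 0.10.

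Chloroplast genes rose, with the largest changes in the regulators and in the early light-induced proteins. Of 11 plastid sigma factors and greening regulators, 8 rose and none fell, with a median of 1.24 (5 and 0 against WT_dark 4-6). SIG5 (AT5G24120), a nuclear-encoded sigma factor of the plastid RNA polymerase known for its blue-light response, was at 3.92, 4.59 and 3.00 TPM in the dark and at 135, 155 and 136 TPM in blue (4.90 ± 0.15). Every blue library was far above the dark ones, and WT_dark 4-6 had 2.07 to 14.1 TPM. The GATA factor CGA1 rose by 3.21 ± 0.23 and GLK2, an activator of photosynthesis genes, by 2.01 ± 0.18, while GLK1 changed by 0.41 ± 0.20 and did not pass.

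Of 9 genes for early light-induced and one-helix proteins, which bind pigments during greening, 8 rose (4 against WT_dark 4-6). ELIP1 (AT3G22840) was at 157, 103 and 100.3 TPM in the dark and at 1678, 2146 and 1799 TPM in blue (3.98 ± 0.19), and ELIP2 rose by 3.30 ± 0.24. Of 41 photosystem and light-harvesting genes, 30 rose and none fell, with a median of 0.51, but against WT_dark 4-6 only 8 were called higher. LHCB2.1 (AT2G05100), an antenna protein of photosystem II, went from 151, 133 and 159.6 TPM to 745, 1139 and 814 TPM (2.58 ± 0.17). It was at 96.2, 303 and 480.3 TPM in WT_dark 4, 5 and 6. LHCB1.3 was the most abundant transcript in all 6 libraries, at 24903 to 27673 TPM in the dark and 17730.4 to 23482 TPM in blue, and its change of -0.31 ± 0.14 did not pass. Reads of the near-identical LHCB1 copies may be shared among them, and the same holds for the RBCS genes.

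Of 16 Rubisco and Calvin cycle genes, 12 rose and 1 fell (2 and 0 against WT_dark 4-6). FBA1, a plastid aldolase, rose by 1.70 ± 0.15, and RBCS3B, a small subunit of Rubisco, went from 2766, 2714 and 2914 TPM to 5324, 7098 and 6158 TPM (1.14 ± 0.11). For RBCS3B, WT_dark 4-6 overlapped the blue libraries at 4061 to 5968 TPM. Chlorophyll synthesis genes split, with 11 of 27 higher and 3 lower (3 and 1 against WT_dark 4-6). CAO (AT1G44446), which makes chlorophyll b, rose from 43.8, 41.3 and 43.5 TPM to 192, 216 and 182 TPM (2.17 ± 0.16). HEMA1, the first committed enzyme of tetrapyrrole synthesis, rose by 1.41 ± 0.14, and GUN5, a magnesium chelatase subunit, by 1.32 ± 0.17. PORA and PORB, the protochlorophyllide reductases of etiolated tissue, fell by 1.37 ± 0.35 and 0.77 ± 0.20. PORA had 1193, 1238 and 1317 TPM in the dark and 606, 687 and 270.3 TPM in blue, and WT_dark 4-6 covered 710.4 to 1777 TPM.

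Of 14 carotenoid synthesis genes 8 rose and none fell (4 and 0 against WT_dark 4-6). The largest changes were in the xanthophyll branch. BETA-OHASE2 (AT5G52570), a beta-carotene hydroxylase, went from 7.66, 5.43 and 7.19 TPM to 81.9, 96.1 and 86.5 TPM (3.53 ± 0.18), and its homologue BETA-OHASE1 rose by 2.56 ± 0.14. ZEP, which makes violaxanthin, rose by 2.43 ± 0.15 and PSY, the first enzyme of the pathway, by 1.59 ± 0.18.

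The phenylpropanoid genes split within the entry step. Of 9 entry genes, 1 rose and 5 fell, with a median of -0.84. PAL2 (AT3G53260), a phenylalanine ammonia-lyase, was at 14.3, 16.7 and 14.3 TPM in the dark and at 96.5, 86.2 and 65.8 TPM in blue (2.37 ± 0.14, adjusted p = 3.83e-08). PAL1 (AT2G37040), the closest relative, moved the other way, from 115, 146 and 140.3 TPM to 68.3, 81.1 and 73.5 TPM (-0.84 ± 0.10). PAL3 and PAL4 fell by 0.95 ± 0.20 and 1.61 ± 0.15, and the coumarate ligase genes 4CL1 and 4CL2 by 1.46 ± 0.10 and 1.95 ± 0.14. For these 5, WT_dark 4-6 lay at or under the blue level or overlapped it, and against that set none of the list fell and 3 members rose. PAL2 was at 13.7 to 21.3 TPM in WT_dark 4-6, below every blue library. C4H, the next enzyme, changed by -0.09 ± 0.09 and did not pass.

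**Figure D4:**
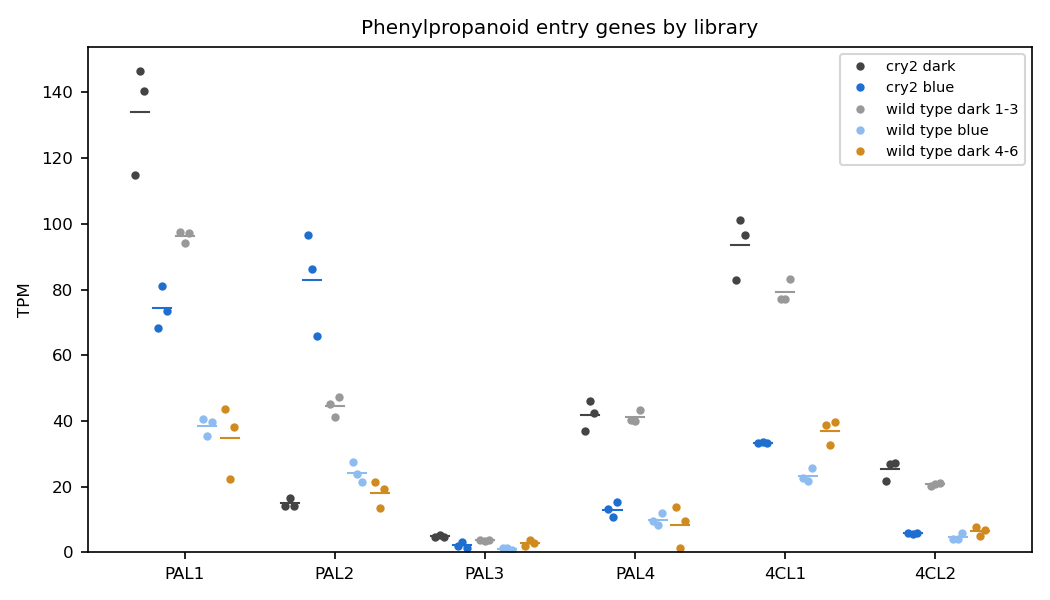
TPM of 4 phenylalanine ammonia-lyase genes and 2 coumarate ligase genes in single libraries (points) with group means (bars) for cry2_dark, cry2_blue, WT_dark 1-3, WT_blue and WT_dark 4-6. PAL2 in cry2_blue (65.8 to 96.5 TPM) lies above all other groups, while the other 5 genes are lower in cry2_blue than in cry2_dark.

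Further down the pathway, 7 of 9 tested flavonoid and anthocyanin enzymes rose and none fell, with a median of 1.55 (6 and 0 against WT_dark 4-6). F3H (AT3G51240), flavanone 3-hydroxylase, went from 16.4, 19.6 and 20.0 TPM to 132, 141 and 131 TPM (2.79 ± 0.20). UGT78D2, a flavonoid glucosyltransferase, rose by 2.93 ± 0.23 and TT19, a transferase needed for anthocyanin transport, by 2.58 ± 0.23. CHS (AT5G13930), chalcone synthase, was at 199, 208 and 210.3 TPM in the dark and at 179, 250.1 and 164 TPM in blue. These overlapped, and the change of -0.08 ± 0.62 did not pass; neither did FLS1, flavonol synthase, at 1.04 ± 0.57. Of 8 tested regulators 6 rose (5 against WT_dark 4-6), among them PAP1 (AT1G56650), the MYB activator of anthocyanin synthesis, from 1.35, 1.07 and 0.82 TPM to 14.2, 13.9 and 9.95 TPM (2.71 ± 0.22). MYB11 and MYB12, activators of flavonol genes, rose by 2.58 ± 0.23 and 1.85 ± 0.19.

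Genes that handle photo-oxidative load rose too. Of 17 photoprotection and redox genes, 12 rose and 1 fell (8 and 0 against WT_dark 4-6). GPX7 (AT4G31870), a plastid glutathione peroxidase, was at 0.05, 0.12 and 0.09 TPM in the dark and at 13.5, 14.9 and 22.5 TPM in blue (4.02 ± 0.19). VTC2 (AT4G26850), the controlling enzyme of ascorbate synthesis, went from 108, 118 and 109 TPM to 922, 1211 and 819 TPM (3.11 ± 0.22), and WT_dark 4-6 had 99.1 to 208 TPM. CAT2, the leaf catalase, rose by 2.03 ± 0.13 and CAT1 fell by 0.54 ± 0.10. Of 12 photorespiration genes 11 rose and none fell (6 and 0 against WT_dark 4-6), with GOX1, glycolate oxidase, at 1.46 ± 0.10, GGT1, a glyoxylate aminotransferase, at 1.89 ± 0.12 and GLDP1, of glycine decarboxylase, at 2.15 ± 0.18. Of 6 photolyase and repair genes 4 rose, including PHR1, the photolyase for pyrimidine dimers (1.58 ± 0.26). Only 1 of the 6 was called higher against WT_dark 4-6.

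Auxin response genes fell broadly. Of 37 tested SAUR genes, which promote cell expansion, 30 fell and 2 rose, with a median of -1.44 (25 and 3 against WT_dark 4-6). SAUR19 (AT5G18010), whose promoter is printed above, went from 41.8, 39.0 and 37.2 TPM to 7.26, 4.06 and 3.93 TPM (-2.77 ± 0.18), with 27.2 to 39.1 TPM in WT_dark 4-6. Its neighbours SAUR20 to SAUR24 are near-identical, so reads may be split among them. SAUR13 (AT4G38825) was at 12.5, 17.7 and 31.8 TPM in the dark and 4.46, 2.31 and 1.22 TPM in blue (-2.56 ± 0.36). SAUR14 and SAUR6 rose by 1.37 ± 0.17 and 1.07 ± 0.18, and 5 of the 37 were not called.

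Of 26 Aux/IAA genes, repressors of auxin response that auxin itself induces, 15 fell and 2 rose (13 and 3 against WT_dark 4-6). IAA19 (AT3G15540) fell from 157, 162 and 181 TPM to 29.0, 18.5 and 20.6 TPM (-2.85 ± 0.16) and IAA29 by 3.64 ± 0.21. Of 8 GH3 genes, which conjugate auxin and other acids to amino acids, 6 fell and 1 rose (2 and 1 against WT_dark 4-6). GH3.5 fell by 1.37 ± 0.10, and DFL2 was the gene that rose, at 1.71 ± 0.20. Auxin synthesis and carrier genes fell in 15 of 20 cases with none rising, but only 5 fell against WT_dark 4-6. LAX3 and AUX1, influx carriers, both fell by 1.84 (SE 0.11 and 0.16). PIN2, an efflux carrier of the root, went from 11.99, 12.4 and 14.8 TPM to 1.84, 1.79 and 1.36 TPM (-2.40 ± 0.15), and WT_dark 4-6 had 2.36 to 3.92 TPM, far under cry2_dark.

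Cell wall genes of growth fell as well. Of 17 expansins, which loosen walls, 14 fell and none rose, with a median of -1.24 (5 and 1 against WT_dark 4-6). EXPA8 (AT2G40610) went from 73.5, 76.9 and 83.2 TPM to 15.1, 12.3 and 11.4 TPM (-2.51 ± 0.11), with WT_dark 4-6 between the groups at 32.5 to 46.1 TPM. Of 22 xyloglucan enzymes 13 fell and 1 rose (7 and 3 against WT_dark 4-6), and XTH15 (AT4G14130), a xyloglucan transferase/hydrolase, fell from 1535, 1629 and 1440.1 TPM to 292, 492 and 264 TPM (-2.19 ± 0.19). For XTH15, WT_dark 4-6 stayed high at 831 to 2051 TPM. Of 9 genes for cellulose synthesis in the primary wall 8 fell (4 against WT_dark 4-6), with CESA3, a catalytic subunit, at -1.27 ± 0.12 and COB, needed for oriented cellulose deposition, at -0.94 ± 0.09.

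In the gibberellin group, 12 of 21 genes fell and 5 rose (6 and 4 against WT_dark 4-6). GA2OX1 (AT1G78440), which inactivates gibberellins, rose from 0.16, 0.17 and 0.47 TPM to 5.53, 4.97 and 5.35 TPM (2.32 ± 0.15). GA20OX2 and GA3OX1, enzymes of synthesis, fell by 1.24 ± 0.19 and 1.03 ± 0.17, and GAI, a DELLA repressor, by 1.90 ± 0.13. Of 17 brassinosteroid genes 10 fell and 4 rose (10 and 1 against WT_dark 4-6). DOGT1 (AT2G36800), a glucosyltransferase that inactivates brassinosteroids, rose from 8.67, 6.62 and 9.10 TPM to 196, 253 and 247 TPM (4.67 ± 0.15). WT_dark 4-6 had 4.40 to 12.2 TPM of it, at the dark level. DWF4 and DWF1, enzymes of brassinosteroid synthesis, fell by 0.78 ± 0.11 and 1.18 ± 0.13.

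Of 19 ethylene genes 9 fell and 6 rose (3 and 3 against WT_dark 4-6). ACS5, an enzyme of ethylene synthesis in etiolated seedlings, went from 7.31, 7.92 and 7.27 TPM to 0.51, 0.37 and 0.23 TPM (-2.64 ± 0.18), and HLS1, needed for the apical hook, fell by 1.27 ± 0.16. ERF1, an ethylene response factor, rose by 1.65 ± 0.21. Of 9 type-A response regulators of cytokinin signalling 6 rose (1 against WT_dark 4-6), led by ARR9 at 1.42 ± 0.10. Abscisic acid and dehydration genes had 5 of 16 higher and 4 lower (5 and 0 against WT_dark 4-6), and KIN1, a cold- and dehydration-induced gene, rose from 4.92, 3.51 and 3.91 TPM to 48.9, 30.0 and 21.2 TPM. The shares of this list in cry2, 31% and 25%, were near the 25.8% and 30.2% over all tested loci. Among 13 jasmonate genes 3 rose and 1 fell (5 and 1 against WT_dark 4-6), with JAZ9, a repressor of jasmonate signalling, at 2.47 ± 0.17.

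Heat shock genes rose in blue light. Of 17 tested factors and chaperones 15 rose and none fell, with a median of 1.94 (14 and 0 against WT_dark 4-6). HSFA2 (AT2G26150), the heat shock factor for extended stress, was at 1.97, 1.75 and 1.92 TPM in the dark and at 54.0, 54.2 and 91.7 TPM in blue (4.51 ± 0.24). WT_dark 4-6 had 1.51 to 2.93 TPM, at the dark level. HSP17.6A (AT5G12030), a small heat shock protein, went from 3.97, 4.76 and 5.74 TPM to 63.8, 94.5 and 278 TPM (4.38 ± 0.47), with cry2_blue 3 far above the other blue libraries. HSP101, the disaggregase, and HSP70 rose by 3.65 ± 0.23 and 2.83 ± 0.17, and cry2_blue 3 was the highest of the blue libraries for both. Temperature is not given in the labels.

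Of 22 genes of rapid stress responses (CBF, ZAT, WRKY and touch genes) 15 rose and 2 fell, with a median of 1.45 (18 and 0 against WT_dark 4-6). DREB2A (AT5G05410), an activator of heat and drought genes, rose from 5.25, 5.28 and 5.06 TPM to 103, 111 and 117 TPM (4.17 ± 0.25). ZAT6, WRKY46 and CBF3, transcription factors of stress responses, rose by 2.93 ± 0.20, 3.27 ± 0.28 and 1.61 ± 0.17, and CBF3 was listed at 0 in every dark cry2 library. WRKY29 and WRKY70, linked to defence, fell by 1.11 ± 0.15 and 0.68 ± 0.22.

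Among 12 calcium sensors, 8 fell and 2 rose, but against WT_dark 4-6 none fell and 3 rose. CAM7 (AT3G43810), a calmodulin, went from 493, 413 and 445 TPM to 208, 219.6 and 182 TPM (-1.14 ± 0.10), and WT_dark 4-6 was lower still at 123 to 152 TPM. The calmodulin-like genes CML37 and CML38 rose by 3.21 ± 0.31 and 2.67 ± 0.22. Calmodulin copies are close in sequence and may share reads.

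Of 17 dark and sugar starvation genes 3 rose and 3 fell (2 and 2 against WT_dark 4-6). DIN6 (AT3G47340), an asparagine synthetase induced in darkness, fell from 139, 137 and 105 TPM to 19.1, 30.7 and 30.4 TPM (-2.23 ± 0.25), while DIN9, a mannose-6-phosphate isomerase, rose by 2.56 ± 0.21. Of 12 seed oil mobilisation genes 2 rose and 4 fell, and ICL, isocitrate lyase, rose by 1.72 ± 0.29. Among 11 nitrogen assimilation genes 2 rose and 4 fell, with NRT1.1, a nitrate transporter, at -1.74 ± 0.12 and GLU1, a glutamate synthase, at 1.30 ± 0.22. Against WT_dark 4-6 the seed oil list had no call and the nitrogen list 1 in each direction. In cry2 the shares were 16.7% higher and 33.3% lower for seed oil, and 18.2% and 36.4% for nitrogen. Over all tested loci they were 25.8% and 30.2%.

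Of 30 mitosis and cytokinesis genes 16 fell and 2 rose, and of 26 DNA replication genes 12 fell and 3 rose. Against WT_dark 4-6 each of these lists had no gene higher and 1 gene lower. CDKB2;1 (AT1G76540), a mitotic kinase, went from 29.0, 33.7 and 33.7 TPM to 13.8, 15.2 and 14.0 TPM (-1.11 ± 0.12), and WT_dark 4-6 lay nearer to blue at 16.6 to 22.0 TPM. PCNA1, the replication clamp, fell by 0.96 ± 0.13, and CDC20.1, an activator of the anaphase-promoting complex, rose by 1.01 ± 0.12. KRP1, an inhibitor of cyclin-dependent kinases, rose by 1.21 ± 0.13, in a list of 21 inhibitors and D-type cyclins where 4 rose and 5 fell (0 and 1 against WT_dark 4-6). The shares of that list in cry2, 19.0% and 23.8%, were below the 25.8% and 30.2% over all tested loci. Of 11 ribosome biogenesis genes 8 fell and none rose, with a median of -0.47 (4 and 0 against WT_dark 4-6). NUC1, a nucleolin, fell by 0.78 ± 0.11, and WT_dark 4-6 (138 to 183 TPM) overlapped the 178 to 213 TPM of cry2_dark and lay above the 103 to 118 TPM of cry2_blue.

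Markers of single tissues were read to check the label. Of the matched markers, 10 of 14 for the root, 11 of 12 vascular, 9 of 13 shoot apex and leaf, 15 of 18 stomatal and 15 of 16 epidermal genes reached the TPM minimum, and 1 epidermal gene was listed at 0 in all 6 libraries. Of 12 seed reserve genes, 10 were below the minimum. Of 10 tested root markers 7 fell and none rose, and the sum over the list was 359.92 to 447.1 TPM in the dark and 126 to 152 TPM in blue. CASP1 (AT2G36100) and CASP2, which build the Casparian strip of the root endodermis, fell by 2.11 ± 0.18 and 2.26 ± 0.14. CASP1 had 114, 152 and 157 TPM in the dark, 28.1, 26.8 and 41.8 TPM in blue, and 21.2 to 47.2 TPM in WT_dark 4-6, which matches blue. SCR, a gene of the endodermis and stem cell niche, changed by -0.04 ± 0.11 and did not pass. Of 11 vascular markers 8 fell and 2 rose, with sums of 291 to 373 TPM in the dark and 139 to 196 TPM in blue. XCP2, a protease of the xylem, went from 73.0, 84.5 and 88.1 TPM to 32.6, 25.3 and 22.8 TPM (-1.58 ± 0.22), with 10.2 to 15.8 TPM in WT_dark 4-6.

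Against WT_dark 4-6 no root marker was called and 2 vascular markers were higher. In bulk samples fewer cells of a type and less RNA per cell cannot be told apart. Of 15 epidermis and cuticle genes 12 fell and none rose, with sums of 5714 to 6365 TPM in the dark and 2232 to 3211 TPM in blue (2 and 0 against WT_dark 4-6). LTP2, a lipid transfer protein, made up most of that sum and fell by 1.35 ± 0.14, and FDH, a fatty acid elongase of the epidermis, fell by 1.61 ± 0.14. Of 15 stomatal genes 3 rose and 3 fell (none against WT_dark 4-6), with STOMAGEN, a peptide made in the mesophyll, at 1.08 ± 0.12 and TMM, a receptor of the stomatal lineage, at -1.31 ± 0.22. The stomatal shares in cry2, 20% each way, were below the 25.8% and 30.2% over all tested loci. Among 9 shoot apex and leaf genes 3 rose and 2 fell (0 and 1 against WT_dark 4-6), with STM, of the meristem, at -0.83 ± 0.13. Their shares in cry2, 33.3% and 22.2%, were near those over all tested loci. Of the 2 seed reserve genes that were tested, 1 rose (1 against WT_dark 4-6): EM6, of late embryogenesis, rose by 0.82 ± 0.32 and stayed at or under 4.24 TPM.

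The loci with the smallest p differed in their level in WT_dark 4-6. For some of the higher ones it was near that of cry2_dark, such as ABCI21 (AT5G44110), an ABC protein, at 15.1, 15.8 and 16.8 TPM in the dark and 277, 283 and 259.8 TPM in blue (4.02 ± 0.09), with 11.5 to 32.6 TPM in WT_dark 4-6. PDX1L4, annotated as similar to a vitamin B6 synthase, rose by 3.81 ± 0.08 from 7.02 to 7.42 TPM in the dark, and WT_dark 4-6 lay between the groups at 16.6 to 28.9 TPM. HBP1, a heme-binding protein, rose by 3.59 ± 0.10. The glutaredoxin gene AT1G64500 rose by 3.09 ± 0.10. Others were at the blue level in the dark libraries WT_dark 4-6. The non-coding AT1G05347 was listed at 0, 0.25 and 0 TPM in cry2_dark and at 257, 242 and 322 TPM in cry2_blue, with 87.5 to 299.8 TPM in WT_dark 4-6. AT5G44390, a berberine-bridge family gene, and AT3G17060, a pectin lyase family gene, followed the same pattern with 162 to 194 TPM and 28.8 to 37.5 TPM in WT_dark 4-6.

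Among the lower ones WT_dark 4-6 was at the blue level in most cases. AGP30 (AT2G33790), an arabinogalactan protein of the root, was at 42.2, 41.5 and 48.1 TPM in the dark and 0.04, 0.05 and 0.53 TPM in blue, with at most 0.38 TPM in WT_dark 4-6. The lectin gene AT1G52070, the LEA-like gene AT5G54370 and the paired beta-glucosidase genes BGLU34 and BGLU35 gave the same order, and reads of the last pair may be shared. The ribosomal RNA locus AT2G01010 was at 2802, 3562 and 2420.0 TPM in the dark, while cry2_blue had at most 0.91 TPM and WT_dark 4-6 at most 0.90 TPM. In all, 39 loci were under 1 TPM in every dark and at least 10 TPM in every blue library, and 38 showed the reverse. WT_dark 4-6 lay nearer to blue at 19 of the 39 (48.7%) and at 37 of the 38 (97.4%), against 61.9% of all tested loci. Of the nuclear ones, 44.4% and 41.2% overlapped another annotated locus, against 33.7% of all tested nuclear loci, and the setting for strand in the counting is not given in the sources used here.

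Whether the response without CRY2 differed from that of wild type was tested as the interaction of genotype and light. It was called at 561 loci (2.81%), with the cry2 change above that of wild type at 260 and below it at 301, and 3848 loci had an unadjusted p under 0.05. Of the 3641 loci changed at least 2-fold in cry2, the interaction was called at 169 (4.64%). Of the same 3641, 2999 (82.4%) were also called and at least 2-fold changed in the same direction in wild type, against WT_dark 1-3. Wild type had 4656 loci called and changed at least 2-fold. The count moved with the set of dark wild-type libraries, and 4472 loci were called when WT_dark 4-6 took the place of WT_dark 1-3. Without WT_blue 3 the count was 1555, and without cry2_dark 3 it was 95.

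PAL2 had the smallest p among nuclear protein-coding genes that rose more in cry2 than in wild type. Its change was 2.37 in cry2 and -0.85 in wild type, a difference of 3.22 ± 0.20 (adjusted p = 3.41e-06), and the difference was 1.95 with WT_dark 4-6 as the dark wild type. PAP1 rose by 2.71 in cry2 and by 0.94 in wild type (difference 1.77 ± 0.31, adjusted p = 0.0184), and the difference was 2.96 with WT_dark 4-6. The clock genes LNK2 and PRR7, named after their values were seen, rose more in cry2 by 0.95 ± 0.18 and 0.83 ± 0.20, and by 1.76 and 1.38 with WT_dark 4-6. For HY5 the difference was 0.27 ± 0.12 (adjusted p = 0.222) and for CCA1 -0.15 ± 0.16 (adjusted p = 0.652), and neither passed.

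Some light-harvesting genes rose less in cry2 when WT_dark 1-3 was the dark wild type. Of 41 photosystem and light-harvesting genes, the interaction was called at 10 (24.4%), and all 10 were below wild type, while the other 31 did not pass. LHCA1 rose by 2.11 in cry2 and 2.99 in wild type (difference -0.88 ± 0.19, adjusted p = 0.034), LHCB3 by 1.39 and 2.24 (-0.85 ± 0.20), and PSAK, of photosystem I, by 0.65 and 2.10 (-1.44 ± 0.19). Each of these named genes was higher in every cry2_dark library than in any of WT_dark 1-3, while the blue libraries of the genotypes overlapped. PSAK had means of 1032 TPM in cry2_dark and 418 TPM in WT_dark 1-3, and of 1617 TPM in cry2_blue and 1788 TPM in WT_blue. With WT_dark 4-6 as the dark wild type the difference changed sign at 9 of the 10, and it was 0.79 for LHCA1, 0.65 for LHCB3 and 0.46 for PSAK. HYH behaved alike, at -1.33 ± 0.20 (adjusted p = 0.00838) with the first set and 1.11 with the other, and so did ELIP1, at -1.26 ± 0.26 and 1.05.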

How the data were processed

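Stranded mRNA libraries were made from TRIzol-extracted RNA, per the labels' protocols. The submitters' processing notes name fastp, HISAT2, StringTie and TAIR10; no version, setting or strand option is given in the sources used here. Per locus and library, the authors deposited TPM, which are shares of a library and keep no depth, so precision was judged from replicates alone. Values were mapped by locus to RefSeq's TAIR10.1 annotation (32548 loci matched; 285 belong to the organelle genomes), which gave names, chromosomes and promoters but no coordinates. limma 3.58.1 (R 4.3.3; tables in Python 3.11.15 with pandas 2.3.3) was run on log2(TPM + 1) with trend and robust moderation over 12 libraries in 4 groups, with a mean of at least 1 TPM. The fit was tested on simulated data. Alternatives are given in the closing section.

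The members and the 49 gene lists (850 entries matched to a locus) were chosen with earlier results of these data known. Of 889 symbols, 30 had no match. Named genes were up to 12 per direction with the smallest p and no overlap between groups, up to 5 with the largest gain or loss of TPM, up to 6 per direction in the interaction, and up to 6 per list by p plus up to 3 members that moved the other way or did not pass. Replicate numbers did not pair dark and blue libraries: the correlations of same-numbered deviations were 0.0085, 0.047 and -0.015. Correlations of log2 values across loci were 0.971 to 0.977 within cry2_dark, 0.970 to 0.973 within cry2_blue and 0.852 to 0.873 between them. Ribosomal RNA loci summed to between 9565 and 12665 TPM in the dark and between 7347 and 9968 TPM in blue, and organelle loci 4702 to 9007 and 2111 to 3629 TPM.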

Additional observations from a re-analysis of the deposited data

Results flagged for a closer look

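The following loci were called in cry2 and had a light response that differed between cry2 and wild type (WT_blue 1-3 against WT_dark 1-3) by limma's interaction test. Values are the cry2 change minus the wild-type change on the log2 scale. PAL2, a phenylalanine ammonia-lyase gene, differed by 3.22. AT3G06355, a non-coding locus at 2666 to 3717 TPM in cry2_dark, was listed at 0 in cry2_blue and in WT_dark 4-6, and differed by 2.33. The chloroplast loci ATCG00350, ATCG00340, ATCG00280 and ATCG00270 differed by 3.13, 3.72, 3.65 and 3.18. All 4 fell in both genotypes, and organelle loci together fell from 4702 to 9007 TPM in cry2_dark to 2111 to 3629 TPM in cry2_blue. The ribosomal RNA locus AT2G01020 and AT3G41979, listed with identical values, each differed by -10.51. Both were listed at 0 in WT_dark 1-3, so the size of this difference depends on the 1 added to TPM. AT3G06355 was listed at 0 in the blue libraries of both genotypes. Its difference is therefore that of the dark levels, with means of 3232 TPM in cry2_dark and 16091 TPM in WT_dark 1-3. PSAK, of photosystem I, differed by -1.44 and EARLI1, a lipid-transfer-like gene, by -1.67. AT2G43620, a chitinase family gene, and AT1G09310, of unknown function, differed by -2.09 and -1.22. Both fell in cry2 and not in wild type. For AT2G43620 the blue means were close, at 3.29 TPM in cry2 and 3.39 TPM in wild type. Its dark means were 10.6 TPM in cry2_dark and 1.89 TPM in WT_dark 1-3.

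With WT_dark 4-6 as the dark wild type, PAL2, AT2G43620 and AT1G09310 alone among these kept their sign. The part of library series in any of these differences was not tested.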

How the results depend on the processing

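The count of loci called in the cry2 response (11180) was 9706 to 12057 with 1 library left out and 9199 to 11836 under other pseudocounts, filters, scaling and moderation. The number at least 2-fold changed was 2323 higher and 2043 lower at a pseudocount of 0.1, and 1187 and 853 at a pseudocount of 5. Of the 3641 loci changed at least 2-fold, 3526 to 3641 were called in the same direction under the other settings, except for 2760 with a mean TPM minimum of 5. The median of all loci stayed between -0.08 and -0.01. Replicate numbers share only a number; with a replicate block 10180 loci were called.

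Against WT_dark 4-6, chosen after seeing the data, cry2_blue gave 3330 calls, 1912 higher and 1418 lower, of which 948 and 234 were at least 2-fold. The cause was not tested.

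The interaction count (561) was 278 with plain moderation, 108 with a replicate block and 4472 with WT_dark 4-6. With 1 library left out it ran from 95 to 1555: 131, 109 and 213 without WT_dark 1, 2 and 3, 145 and 95 without cry2_dark 1 and 3, 266, 248 and 1555 without WT_blue 1, 2 and 3, and 326 and 270 without cry2_blue 1 and 2. With WT_dark 4-6 these differences turned: AT3G06355 -11.65, ATCG00350 -3.74, ATCG00340 -2.85, ATCG00280 -1.47, ATCG00270 -2.47, AT2G01020 and AT3G41979 0.39, PSAK 0.46 and EARLI1 1.25.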

Other observations

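Gene families named by their annotated product, looked at after the values were seen, held further groups. The plant invertase and pectin methylesterase inhibitors, which act on wall stiffness or sucrose cleavage, are annotated under 2 product names. Under one, 14 of 15 genes were lower in blue and none higher, with a median of -1.58 (4 lower and 1 higher against WT_dark 4-6). Under the other, 13 of 21 were lower and 3 higher, with a median of -0.81 (3 and 1 against WT_dark 4-6). Of 47 peroxidases, 33 were lower and 5 higher, with a median of -0.89, but against WT_dark 4-6 only 1 was lower and 8 were higher. Of 19 dirigent-like genes, linked to lignan formation, 14 were lower and 2 higher (2 and 2 against WT_dark 4-6). Of 27 histone genes, 18 were lower and none higher, with a median of -0.44 and 1 at least 2-fold (2 lower and 1 higher against WT_dark 4-6). Over all tested loci 30.2% were called lower.

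A pair of loci that overlap each other in the annotation moved in opposite directions, and reads of the shared stretch may be given to either. AT1G23050, a hydroxyproline-rich protein gene, was listed at 0 in every cry2_dark library and at 37.5, 27.2 and 29.0 TPM in cry2_blue. AT1G23052, a non-coding locus, was at 75.05, 84.95 and 78.61 TPM in cry2_dark and at 0 in every cry2_blue library. In WT_dark 4-6 the first was at 88.9 to 114 TPM and the second at 0 in every library.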
